A study of Mus musculus with 42 samples.

Results

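The 44 mitosis genes encode proteins that bring a cell into mitosis, build the spindle, hold chromosomes on it and cut the cell apart at the end. They were taken as a list of gene symbols, and all 44 were found in both RNA tables, 44 of 26323 named entries for CD1 mice and 44 of 35972 for C57BL/6 mice. RNA was sequenced from 21 bulk libraries of sorted mouse lung mesenchyme, the collagen-producing cells between the airways, air sacs and vessels. Open chromatin was mapped by ATAC-seq, which reads where a transposase can cut DNA, in another 21 libraries. In CD1 mice with a Col1a1-GFP reporter, cells that were GFP+, CD45-, EpCAM- and CD31- were grown for 5 days in DMEM with fetal bovine serum on collagen-coated silicone gels of 0.2 kPa (soft) or 32 kPa (stiff), and freshly isolated cells, labelled sham, were the reference. In C57BL/6 mice, CD45- and EpCAM- cells of a Col1a2 lineage trace were taken at day 14 or day 56 of bleomycin injury, a drug model of lung fibrosis, or from sham animals. Each CD1 group had 3 RNA libraries and each C57BL/6 group had 4. Both sorts select by collagen gene activity, so they aim at mesenchyme that makes or once made collagen 1. Marker RNA of other cells was also present in the libraries, as given below. The line that drives the lineage trace, the time of its labelling, and the age and sex of the animals are not stated by the labels. Nor do the labels say whether replicates were separate animals or cultures, so each p-value rests on a sample-to-sample spread that may be technical.

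In textbook terms, a cell enters mitosis when the kinase Cdk1, bound to cyclin A or cyclin B, becomes active. Plk1 and the Aurora kinases then drive spindle assembly, the checkpoint proteins hold anaphase until every kinetochore is attached, and Cdc20 and Ube2c help the anaphase-promoting complex to mark cyclin B for destruction. The central spindle and the contractile ring then separate the daughter cells. Most of these genes are transcribed late in the cell cycle, when B-Myb (Mybl2) and Foxm1 join the MuvB complex on promoters that MuvB keeps silent in resting cells as part of DREAM. Resting adult lung mesenchyme divides rarely, and its mitosis genes are used as markers of division in fibrosis and in culture.

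A pair of motifs is used to describe promoters of the kind that this machinery binds. Of the list, 7 promoters are shown so that the shared letters can be seen beside the expression values, and binding was not measured. A cell cycle genes homology region, or CHR, was searched as TTTGAA or TTCGAA and the CCAAT box as CCAAT, both on either strand, in RefSeq promoters of build GRCm38.p6 that run from 250 bases before to 50 bases after a start site. In the lines below, 150 bases before and 30 after the start are printed 5′ to 3′ on the gene's own strand, with CHR and CCAAT letters in capitals, as TTTGAA or TTCAAA and as CCAAT or ATTGG. Cdk1 lies at chr10:69352883-69353062 (minus strand), Ccnb2 at chr9:70421525-70421704 (minus strand), Cdc20 at chr4:118437314-118437493 (minus strand), Ube2c at chr2:164769779-164769958 (plus strand), Kif11 at chr19:37376232-37376411 (plus strand), Kif18b at chr11:102925095-102925274 (minus strand) and Birc5 at chr11:117849087-117849266 (plus strand). Birc5 is shown because neither motif was found in it.
Cdk1: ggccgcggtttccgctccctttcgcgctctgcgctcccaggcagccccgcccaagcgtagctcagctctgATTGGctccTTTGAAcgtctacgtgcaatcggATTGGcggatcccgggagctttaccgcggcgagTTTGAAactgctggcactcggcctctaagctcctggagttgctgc
Ccnb2: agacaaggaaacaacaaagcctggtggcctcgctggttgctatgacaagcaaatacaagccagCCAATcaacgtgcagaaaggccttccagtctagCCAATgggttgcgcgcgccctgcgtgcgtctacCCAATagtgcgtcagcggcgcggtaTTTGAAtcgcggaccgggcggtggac
Cdc20: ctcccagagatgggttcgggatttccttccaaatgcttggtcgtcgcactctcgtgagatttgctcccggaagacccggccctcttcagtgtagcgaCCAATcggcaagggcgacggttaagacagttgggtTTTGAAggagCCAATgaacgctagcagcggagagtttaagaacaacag
Ube2c: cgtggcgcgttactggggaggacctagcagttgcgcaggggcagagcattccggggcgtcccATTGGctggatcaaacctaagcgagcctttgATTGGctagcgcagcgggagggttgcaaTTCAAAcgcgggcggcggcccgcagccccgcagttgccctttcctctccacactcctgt
Kif11: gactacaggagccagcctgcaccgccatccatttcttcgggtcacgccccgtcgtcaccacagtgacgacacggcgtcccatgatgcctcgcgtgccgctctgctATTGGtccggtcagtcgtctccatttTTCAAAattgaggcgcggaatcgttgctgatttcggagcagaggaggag
Kif18b: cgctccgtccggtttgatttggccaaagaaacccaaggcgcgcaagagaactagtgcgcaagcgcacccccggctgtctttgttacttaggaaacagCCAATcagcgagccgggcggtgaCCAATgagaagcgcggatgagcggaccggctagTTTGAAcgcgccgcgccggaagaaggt
Birc5: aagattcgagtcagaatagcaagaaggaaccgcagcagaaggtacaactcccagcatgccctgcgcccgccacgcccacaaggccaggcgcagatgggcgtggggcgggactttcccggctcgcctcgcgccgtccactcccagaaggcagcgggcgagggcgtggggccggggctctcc

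The CHR of Cdk1 nearest its start began at position -15, counted with the start site as 1 and the base before it as -1. In Ccnb2 the CHR began at position 5 behind CCAAT boxes at -87, -54 and -21. Of the 44 genes, 35 matched 37 promoters of the table, and Pbk, Foxm1, Kif20a, Ccna2, Incenp, Dlgap5, Tpx2, Cdc25c and Aurkb did not. A CHR was found in 29 of the 37 promoters (78.4%), compared with 14.5% of the promoters of all genes tested in CD1 and 19.2% of the whole table. It began within 30 bases of the start site in 22 of them (59.5%, and 2.41% for all genes tested). A CCAAT box was also found in 29 (78.4%, and 37.1% for all genes tested), more than 1 in 21 (56.8%, and 12.9%), and both motifs together in 26 (70.3%, and 5.90%). The motifs overlapped in 1 promoter of the 37. In 56 promoters of other mitosis genes, a CHR was found in 62.5%, a CCAAT box in 73.2% and both in 48.2%. In 29 promoters of G1/S and replication genes the shares were 20.7%, 58.6% and 17.2%. The E2F site TTCCCGC, searched on both strands, was in 0 of the 37. It was in 16.1% of the promoters of other mitosis genes, 34.5% of those of G1/S and replication genes and 7.22% for all genes tested. The GC box GGGCGG, on either strand, was in 30 of the 37 (81.1%, and 55.8% for all genes tested). It was in 67.9% of the promoters of other mitosis genes and 75.9% of those of G1/S and replication genes. A match describes letters in this window and is not evidence that a factor binds there.

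Depth was 35858180 to 69524944 reads per library in CD1 and 14288605 to 51288435 in C57BL/6, recovered as whole reads from the deposited normalized values. Levels are given as CPM, recovered reads scaled to the library's total over named genes. In C57BL/6, sham replicates 1 and 2 and day 56 replicates 2 and 3 had 16563 to 17561 genes detected, fewer than the 19384 to 21381 of the other 8 libraries. These 4 libraries listed 24, 15, 10 and 17 of the 44 mitosis genes at 0 reads, whereas sham replicates 3 and 4 and all day 14 libraries listed none at 0. Counts of the 44 genes called in C57BL/6, and changes of members that rest on these libraries, are also given without them, which leaves 2 sham and 2 day 56 libraries. For single genes outside the 44, changes are given with all libraries only. Summed over 8 mesenchyme markers (Col1a1, Col3a1, Pdgfra and others), levels were 29907 to 103020 CPM in the C57BL/6 libraries and 51936 to 62464 CPM in CD1 sham, and 4609 to 5677 CPM on the gels.

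Mitosis gene RNA was low in all fresh sham cells and high in cultured and day 14 cells. Summed over the 44 genes, levels were 4434, 4200.5 and 3959.6 CPM on 0.2 kPa and 3831, 3664 and 4188 CPM on 32 kPa, against 83.5, 91.4 and 109.9 CPM in CD1 sham cells. In C57BL/6 the sums were 906, 1174, 1055 and 836 CPM at day 14 and 83.1, 128, 86.8 and 99.9 CPM at day 56, against 72.6, 79.2, 90.4 and 79.3 CPM in sham cells. The mean sum was thus 44.2 times that of sham on 0.2 kPa, 41.0 times on 32 kPa, 12.4 times at day 14 and 1.24 times at day 56 (11.7 and 1.08 times without the 4 libraries with fewer genes detected). In bulk samples, fewer dividing cells and less RNA per dividing cell cannot be told apart. No gene of the list dominated the sum, since Top2a (5.72%) and Anln (5.72%) had the largest shares on 0.2 kPa, and Kif20a (6.92%) at day 14.

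**Figure D1:**
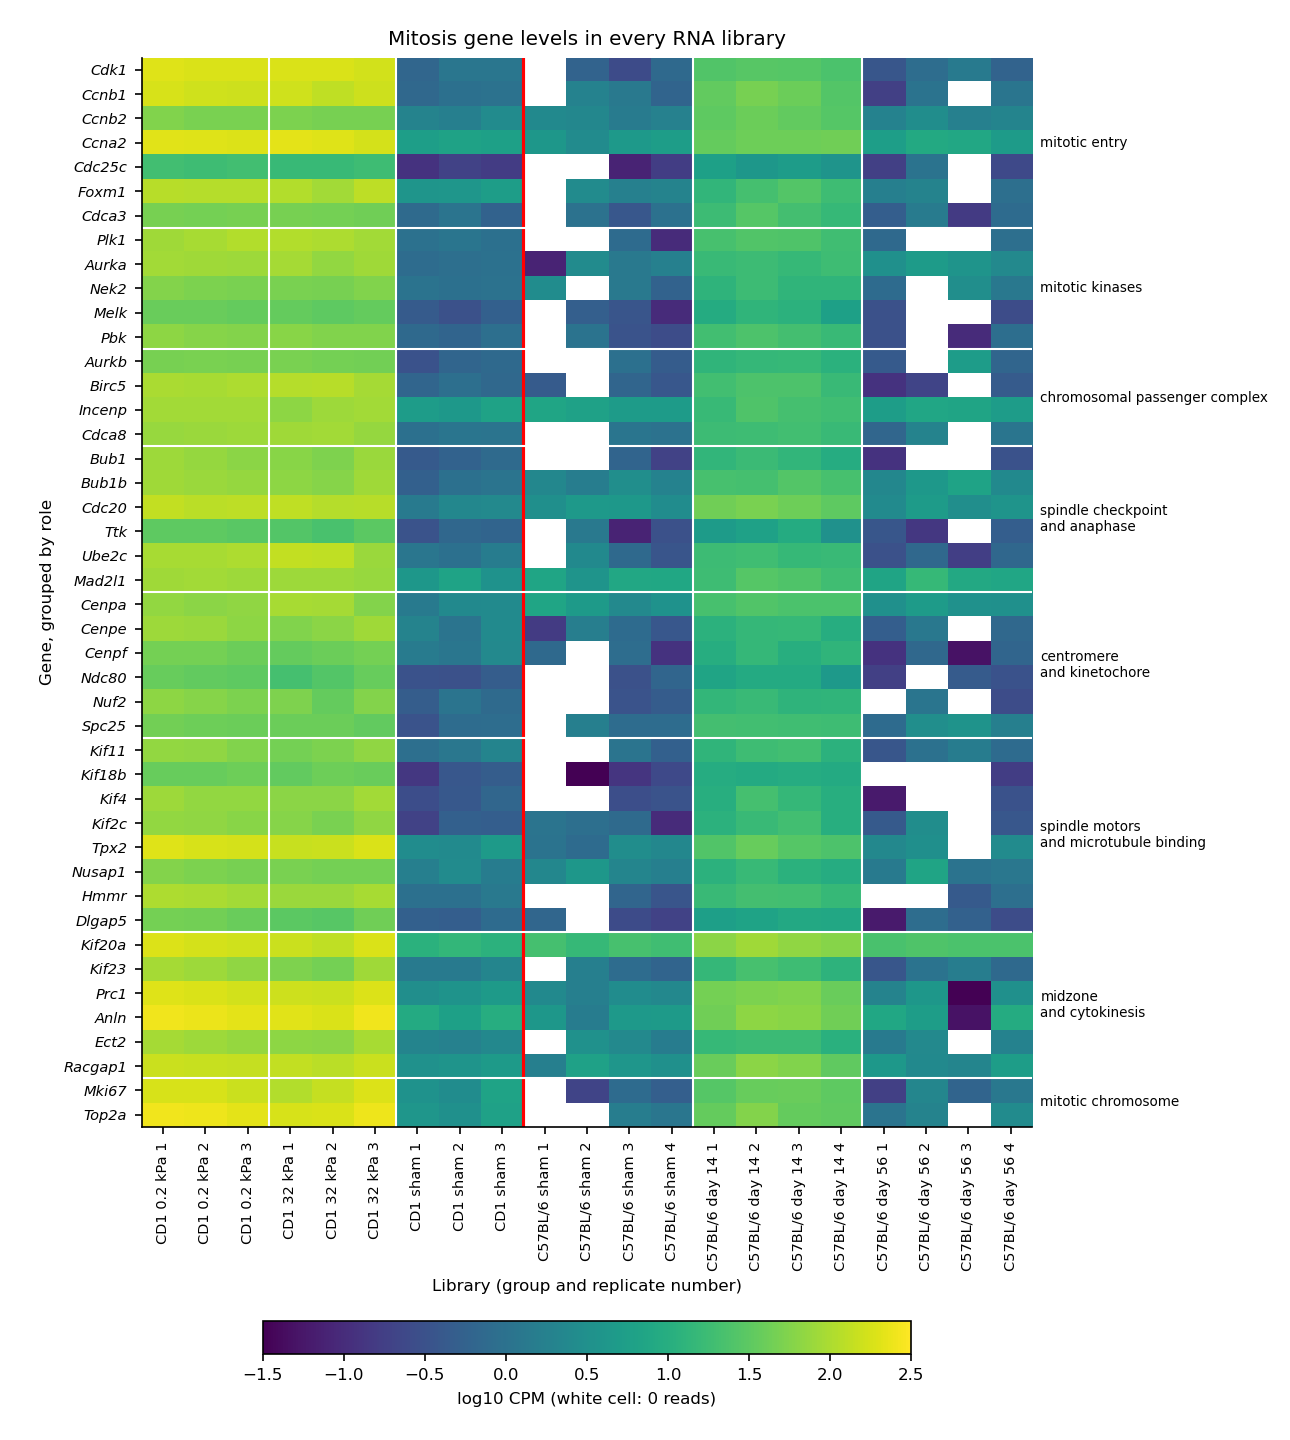
Level of each mitosis gene (rows, grouped by role) in each RNA library (columns) as log10 CPM, with white cells for 0 reads and a red line between the strains. The gel and day 14 libraries are light throughout, the sham and day 56 libraries are dark, and the white cells lie in C57BL/6 sham replicates 1 and 2 and in day 56 replicates 1, 2 and 3.

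Per kilobase of exon, the leading gene differed between the sham and day 56 groups and the gel and day 14 groups. The length is the union of all annotated exons of a gene, not that of its RNA, so the order of genes depends on the annotation. It was 4934 bases for Cdk1 and 1868 for Cdc20, while their mean levels on 0.2 kPa were 190 and 128 CPM. Cdc20, which activates the anaphase-promoting complex, led on 0.2 kPa (68.4 CPM per kb), on 32 kPa (65.4) and at day 14 (22.3). Kif20a, a kinesin of the central spindle, led at day 56 (5.45), in CD1 sham (2.88) and in C57BL/6 sham (4.44). Cenpf, a kinetochore and nuclear matrix protein with a long transcript, was lowest on 0.2 kPa (2.89), on 32 kPa (2.65) and at day 14 (0.778). Of the exonic bases of Kif20a, 29.3% lie opposite exons of Cdc23 on the other strand. The labels do not say whether counting used strand, so reads of Cdc23 may be included in the Kif20a level. The same holds for Ube2c (22.8% shared with Tnnc2), Kif4 (15.1%), Cdc25c (12.7%), Ccna2 (12.5%) and Prc1 (11.1%).

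After 5 days of culture, every one of the 44 genes rose on both gels relative to fresh sham cells. All 44 passed limma's test on 0.2 kPa (adjusted p of 7.02e-11 to 3.81e-08, where 31.9% of all 18480 genes tested were higher and 39.2% lower) and all 44 on 32 kPa (6.77e-11 to 4.7e-08, where 32.4% of all genes were higher and 41% lower). The median change was 5.74 on 0.2 kPa and 5.68 on 32 kPa as log2 fold change of the rescaled value plus 1, while the median over all genes tested was -0.22 and -0.26. The range ran from Kif20a (3.62 ± 0.13, SE, on 0.2 kPa and 3.52 ± 0.13 on 32 kPa) to Cdk1 (7.40 ± 0.20 on both gels). For each gene the cultured libraries and the sham libraries did not overlap, which held for 34.5% of all genes upward and 41.9% downward on 0.2 kPa, and for 32.4% and 40.7% on 32 kPa. The comparisons of the gels with sham share the 3 sham libraries.

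Among the 7 genes of mitotic entry, all rose on both gels. The kinase gene Cdk1 had 199, 186 and 185 CPM on 0.2 kPa and 189, 185 and 167 CPM on 32 kPa, against 0.652, 1.17 and 1.16 CPM in sham cells. Its partner cyclin B1 (Ccnb1) had 184, 164 and 154 CPM on 0.2 kPa and 160, 132 and 159 CPM on 32 kPa, against 0.705, 0.945 and 1.02 CPM in sham cells. Both genes were thus near 1 CPM before culture and above 100 in each cultured library. Cyclin A2 (Ccna2), which acts in S phase as well as at entry, had 212, 203 and 195 CPM on 0.2 kPa and 215, 199 and 174 CPM on 32 kPa, against 5.52, 6.44 and 5.96 CPM in sham cells. The transcription factor gene Foxm1 had 116, 115 and 114 CPM on 0.2 kPa and 109, 89.3 and 128 CPM on 32 kPa, against 3.84, 3.99 and 5.29 CPM in sham cells. Ccna2 and Foxm1 started from a higher sham level and had smaller changes (Ccna2 4.89 ± 0.12 and 4.90 ± 0.12, Foxm1 4.53 ± 0.15 and 4.50 ± 0.15 on 0.2 kPa and 32 kPa). The lowest change of the group was that of cyclin B2 (Ccnb2), 4.42 ± 0.17 on 0.2 kPa.

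The 5 mitotic kinases Plk1, Aurka, Nek2, Melk and Pbk rose by 5.47 to 6.33 on 0.2 kPa, a narrower range than in the other groups of 4 or more genes. Plk1, the polo kinase of centrosomes and kinetochores, had 85.4, 93.9 and 108 CPM on 0.2 kPa and 110, 103 and 87.0 CPM on 32 kPa, against 0.987, 1.14 and 0.933 CPM in sham cells. In the chromosomal passenger complex, which corrects wrong attachments, the kinase gene Aurkb had 47.3, 48.9 and 47.8 CPM on 0.2 kPa and 49.2, 46.0 and 43.8 CPM on 32 kPa, against 0.317, 0.635 and 0.737 CPM in sham cells. Its partner survivin (Birc5) had 98.6, 96 and 102 CPM on 0.2 kPa and 115, 117 and 90.3 CPM on 32 kPa, against 0.635, 0.901 and 0.720 CPM in sham cells. The scaffold Incenp changed least of that complex (3.88 ± 0.14 on 0.2 kPa and 3.78 ± 0.14 on 32 kPa), and Birc5 most (6.82 ± 0.16 and 7.0 ± 0.16).

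Checkpoint and anaphase genes rose by 4.03 (Mad2l1) to 6.76 (Bub1) on 0.2 kPa. The checkpoint gene Bub1b, which encodes BubR1, had 85.6, 79.5 and 73.1 CPM on 0.2 kPa and 65.0, 59.8 and 84.0 CPM on 32 kPa, against 0.529, 0.945 and 1.10 CPM in sham cells. Cdc20 had 134, 124 and 126 CPM on 0.2 kPa and 133, 115 and 119 CPM on 32 kPa, against 1.38, 2.24 and 2.41 CPM in sham cells. All 6 centromere and kinetochore genes rose. The histone variant gene Cenpa, which marks centromeres, had 70.5, 63.2 and 68.9 CPM on 0.2 kPa and 94.4, 90.0 and 57.6 CPM on 32 kPa, against 1.43, 2.48 and 2.59 CPM in sham cells. Ndc80, which holds microtubules at the kinetochore, had 36.9, 35.0 and 32.8 CPM on 0.2 kPa and 21.3, 27.1 and 36.8 CPM on 32 kPa, against 0.317, 0.310 and 0.475 CPM in sham cells. In both genes the 32 kPa libraries differed more from each other than the 0.2 kPa libraries did.

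The 8 genes of spindle motors and microtubule binding rose by 4.56 (Nusap1) to 7.22 (Kif2c) on 0.2 kPa. Kif11, the motor that pushes spindle poles apart, had 71.6, 69.1 and 55.0 CPM on 0.2 kPa and 46.1, 51.9 and 69.6 CPM on 32 kPa, against 0.899, 1.24 and 2.01 CPM in sham cells. Kif18b, a kinesin of astral microtubule ends, had 37.3, 37.7 and 41.6 CPM on 0.2 kPa and 34.8, 40.8 and 38.5 CPM on 32 kPa, against 0.141, 0.384 and 0.475 CPM in sham cells. Midzone and cytokinesis genes had the lowest median change of the roles, 5.08 on 0.2 kPa and 5.00 on 32 kPa. The motor Kif20a had 192, 173 and 162 CPM on 0.2 kPa and 154, 133 and 186 CPM on 32 kPa, against 11.4, 14.3 and 11.7 CPM in sham cells. The microtubule bundler Prc1 had 198, 184 and 166 CPM on 0.2 kPa and 156, 152 and 197 CPM on 32 kPa, against 3.00, 3.62 and 4.78 CPM in sham cells. Anillin (Anln), the scaffold of the contractile ring, had 264, 242 and 214 CPM on 0.2 kPa and 210, 186 and 260 CPM on 32 kPa, against 8.83, 6.02 and 9.69 CPM in sham cells. These 3 genes, with Ccna2 and Foxm1, were among those with most RNA before culture.

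The proliferation antigen gene Mki67 had 180, 180 and 150 CPM on 0.2 kPa and 108, 140 and 193 CPM on 32 kPa, against 3.44, 2.84 and 6.58 CPM in sham cells. The topoisomerase gene Top2a, whose product untangles sister chromatids, had 258, 247 and 216 CPM on 0.2 kPa and 180, 191 and 253 CPM on 32 kPa, against 4.0, 3.25 and 6.24 CPM in sham cells. Mki67 rose by 5.20 ± 0.28 and 5.03 ± 0.28 and Top2a by 5.58 ± 0.21 and 5.44 ± 0.21 on 0.2 kPa and 32 kPa. For both, sham replicate 3 was the highest of the sham libraries. It was so for 30 of the 44 genes. The 12 leukocyte markers summed to 7.48 to 14.9 CPM on 0.2 kPa and 7.6 to 8.33 CPM on 32 kPa, against 107 to 211 CPM in sham cells. All 12 were called lower on both gels, where 39.2% of all genes were on 0.2 kPa and 41% on 32 kPa. Cd3e, Cd52 and Tyrobp had a median of 0 CPM on both gels. Epithelial markers summed to 0.862 to 0.991 CPM on 0.2 kPa and 0.845 to 1.65 CPM on 32 kPa, against 132 to 364 CPM in sham cells, and endothelial markers to 15.3 to 16.1 CPM and 15.1 to 18.1 CPM, against 318 to 334 CPM. The part of such cells in the change of the mitosis genes was not tested. In the authors' deposited table, all 44 genes also had an adjusted p below 0.05 on 0.2 kPa and all 44 on 32 kPa, where 67.4% and 67.6% of all genes with a value did.

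The stiff and the soft gel were set against each other to ask whether stiffness changes the mitosis genes. None of the 44 passed the test. The changes, 32 kPa minus 0.2 kPa, ranged from -0.34 ± 0.23 for Kif23, a kinesin of the central spindle, to 0.30 ± 0.25 for Cenpa, with a median of -0.06, while the median over all genes was -0.01. Limma called 0 of all genes (0%, 18480 tested, 1010 at an unadjusted p below 0.05), and 0 of the 44 had an unadjusted p below 0.05. Over all genes, edgeR called 0 higher and 1 lower with TMM and 0 higher and 5 lower with total reads, and DESeq2 called 4 higher and 39 lower, with 0 of the 44 among them. The gels overlapped for every one of the 44 genes (3.61% of all genes were higher and 5.62% lower without overlap). The 95% intervals of the 44 changes lay between -0.85 and 0.86 on the log2 scale. For Cdk1 the interval was -0.45 to 0.44, for Mki67 -0.79 to 0.45 and for Ccnb1 -0.42 to 0.25. In the authors' deposited table, 0 of the 44 genes had an adjusted p below 0.05 for the 2 gels (0.282% of all genes with a value). These intervals are for single genes, are not adjusted and are not limits of detection. The standard errors ran from 0.117 to 0.341, with 3 libraries a group, and a difference within a gene's interval was not excluded.

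Within the stiff group, the libraries differed in a way that follows exonic length. Replicate 3 had the highest level of the group for 26 of the 44 genes and was lowest for 13, among them Ube2c, Cenpa and Birc5. The log2 ratio of replicate 3 to the mean of replicates 1 and 2 was -0.76 for Ube2c, the ubiquitin-conjugating enzyme of the anaphase-promoting complex, -0.68 for Cenpa and -0.36 for Birc5. Across the 44 genes it rose with exonic length (Spearman's rho 0.634), and across 8520 protein-coding genes of at least 10 CPM rho was 0.555. These genes share their libraries and are not independent, so no p-value is given, and this description was chosen after the data were seen. Replicates 1 and 2 also had fewer genes detected (16394 and 16311) than replicate 3 (17872). Its part in the comparison of the gels was not tested, and leaving out any 1 CD1 library left 0 of the 44 genes called.

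**Figure D2:**
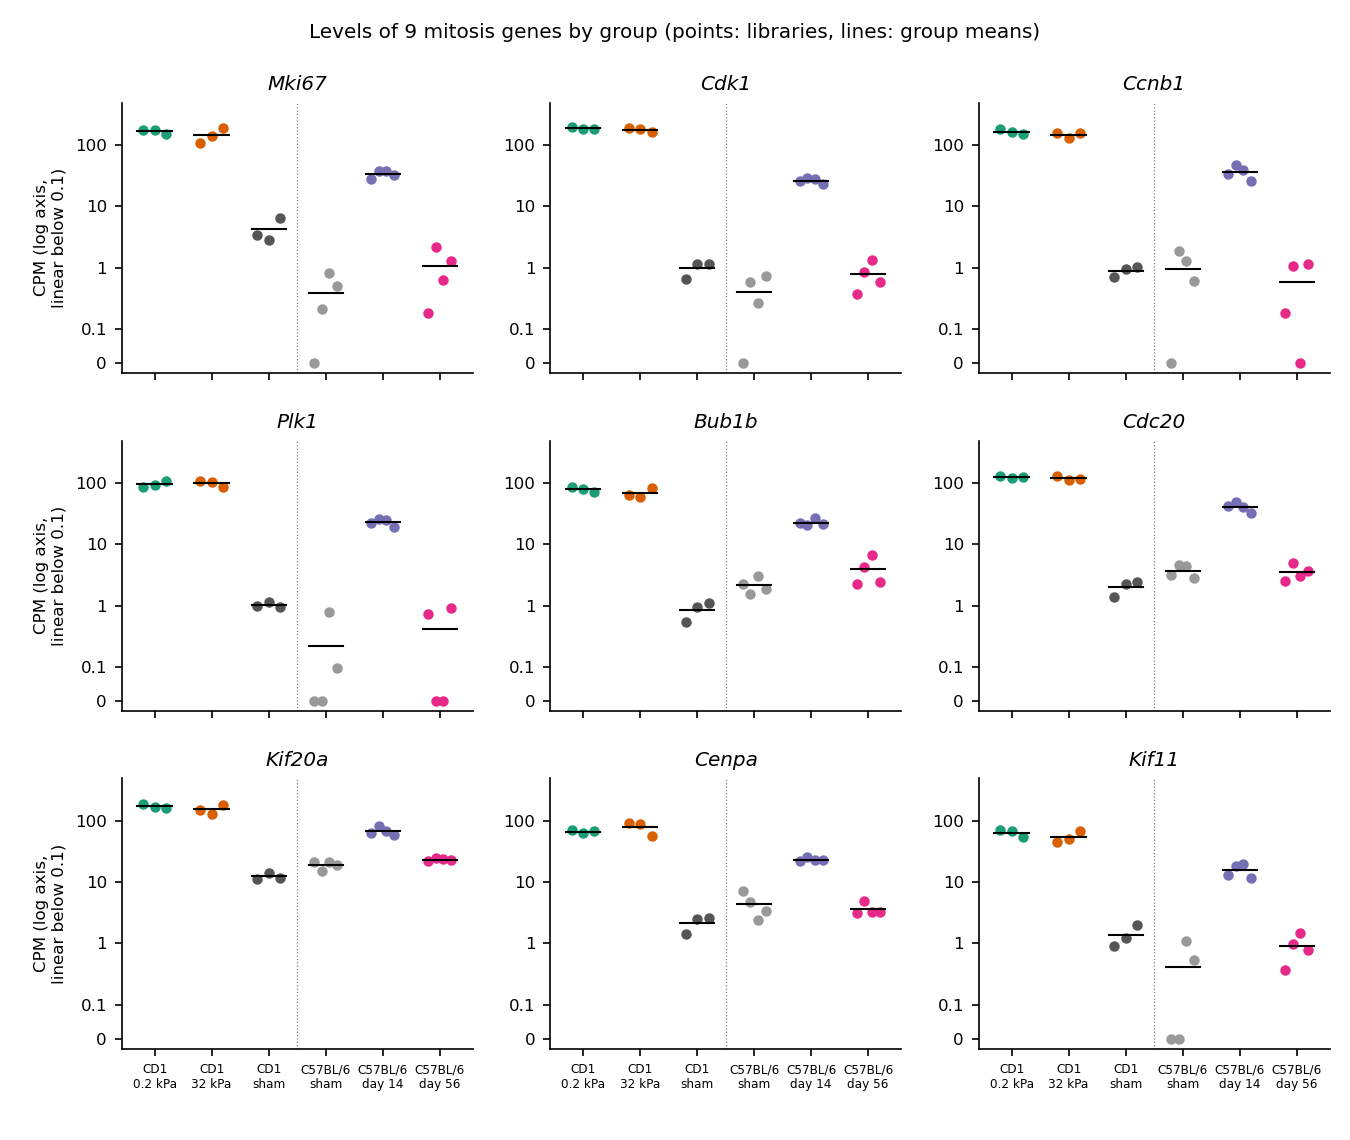
Level of 9 mitosis genes in each RNA library (points) with the group mean (lines), on an axis that is logarithmic above 0.1 CPM and linear below. Points on 0.2 kPa and 32 kPa overlap for each gene, all lie above the CD1 sham points, and in C57BL/6 the day 14 points stand above those of sham and day 56.

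At day 14 after bleomycin, 43 of the 44 genes rose relative to sham (adjusted p of 1.27e-06 to 0.0357), where 9.57% of all 21100 genes tested were higher and 6.36% lower. The median change was 5.46 on the log2 scale, against 0.05 over all genes. It was 4.47 without the 4 libraries with fewer genes detected, 4.49 with edgeR (TMM), 4.53 with DESeq2 and 4.47 as the log2 ratio of mean CPM, and the median fold in the authors' deposited table was 4.53. On 0.2 kPa the log2 ratio of mean CPM had a median of 5.91. With all libraries the changes ran from Incenp (1.81 ± 0.24) to Plk1 (7.98 ± 1.29), and without the 4 libraries from Mad2l1 (1.5 ± 0.21) to Plk1 (6.18 ± 0.59). Ect2, the exchange factor that starts furrow formation, was the member not called (4.32 ± 1.49, adjusted p = 0.0644). All 44 genes were higher in each day 14 library than in any sham library, as were 15.4% of all genes tested, and 10.8% were lower in each. Standard errors were large, with a median of 1.02 over the 44 genes compared with 0.20 in CD1, and the genes with the largest changes, Plk1 and Top2a, were at 0 reads in sham replicates 1 and 2. Without the 4 libraries with fewer genes detected, the median standard error was 0.37, 44 genes were called higher (13.9% of all genes were higher and 12.2% lower), and Ect2 rose by 2.93 ± 0.30 (adjusted p = 0.000101). In the authors' deposited table, 44 of the 44 genes had an adjusted p below 0.05 for day 14 and sham (28.7% of all genes with a value).

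Leaving out 1 library at a time left 39 to 44 genes called higher at day 14. Anln lost its call without any 1 of the day 14 replicates or sham replicate 2 (adjusted p of 0.0541 to 0.0797), Foxm1 without any day 14 replicate or sham replicate 1 (0.0653 to 0.0872), Nek2 without any day 14 replicate, sham replicate 2 or sham replicate 4 (0.0581 to 0.0828), and Tpx2 without day 14 replicate 2 or 3 or sham replicate 2 (0.0516 to 0.0636). Their changes stayed between 3.22 and 4.97 on the log2 scale. Ect2 was called without day 56 replicate 3 (adjusted p = 0.0201), which enters through the common estimate of spread.

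At day 56 the level was back near that of sham, and 0 of the 44 genes passed the test against it. Limma called 0 genes higher and 1 lower among all tested (0.00474%), with 1328 at an unadjusted p below 0.05, 4 of them among the 44. DESeq2 called 54 higher and 26 lower, edgeR 7 and 1 with total reads and 0 and 1 with TMM, and in each 0 of the 44. The 44 changes ranged from -1.16 ± 1.00 for Prc1 to 2.42 ± 1.06 for Kif11 with a median of 0.09, against -0.02 for all genes, and day 56 and sham libraries overlapped for all 44 (1.47% of all genes were higher and 1.1% lower without overlap). Without the 4 libraries, 0 of the 44 were called (0.0609% of all genes were higher and 0.00469% lower), their median change was -0.10, and Kif11 changed sign to -0.56 ± 0.48, not called. With all libraries the 95% intervals reached from -3.53 to 4.87 on the log2 scale, so a change of several-fold in a single low gene was not excluded. Against day 14, 43 genes fell at day 56 (adjusted p of 2.37e-06 to 0.0474, where 8.49% of all genes were lower and 5.71% higher), with a median change of -5.17 and a range from -7.71 ± 0.87 for Kif18b to -1.44 ± 0.31 for Mad2l1. The median was -4.51 without the 4 libraries and -4.26 with edgeR (TMM), and the median fold in the authors' deposited table was -4.25. Ect2 again missed the threshold (-4.62 ± 1.49, adjusted p = 0.053). For each gene the day 56 libraries lay below all day 14 libraries, as did 12% of all genes tested, and 8.29% lay above. In the authors' deposited table, 44 genes had an adjusted p below 0.05 for days 56 and 14 (21% of all genes with a value) and 0 of the 40 with a value did for day 56 and sham (0.386%). The comparisons of days 14 and 56 with sham share the 4 sham libraries, and those that use day 14 share the day 14 libraries.

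Leaving out 1 library at a time left 36 to 44 genes called lower at day 56 than at day 14, and without the 4 libraries with fewer genes detected 44 were called (13% of all genes were lower and 10.4% higher). Aurka lost its call in 10 of the 12 omissions, all but those of sham replicates 1 and 2 (adjusted p of 0.0531 to 0.115). Nek2, Aurkb and Spc25 lost theirs without any day 14 replicate, Nek2 and Aurkb also without day 56 replicate 1 or 2, and Spc25 also without day 56 replicate 1 or 4 (adjusted p of 0.0603 to 0.0968 over the 3 genes). Foxm1 did so without any day 14 replicate or day 56 replicate 3 (0.0501 to 0.0689), Cdca8 without day 14 replicate 2 or 3 (0.0531 and 0.055), and Top2a without day 14 replicate 2 (0.0501). Ect2 was called without sham replicate 1 (0.0103) or day 56 replicate 2 (0.044). With the presence of Xist transcript as a term, which separates libraries with and without it, 42 genes were called at day 14 against sham and 35 at day 56 against day 14. The share of all genes called with this term, and the spread of such libraries over the groups, are not given here.

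**Figure D3:**
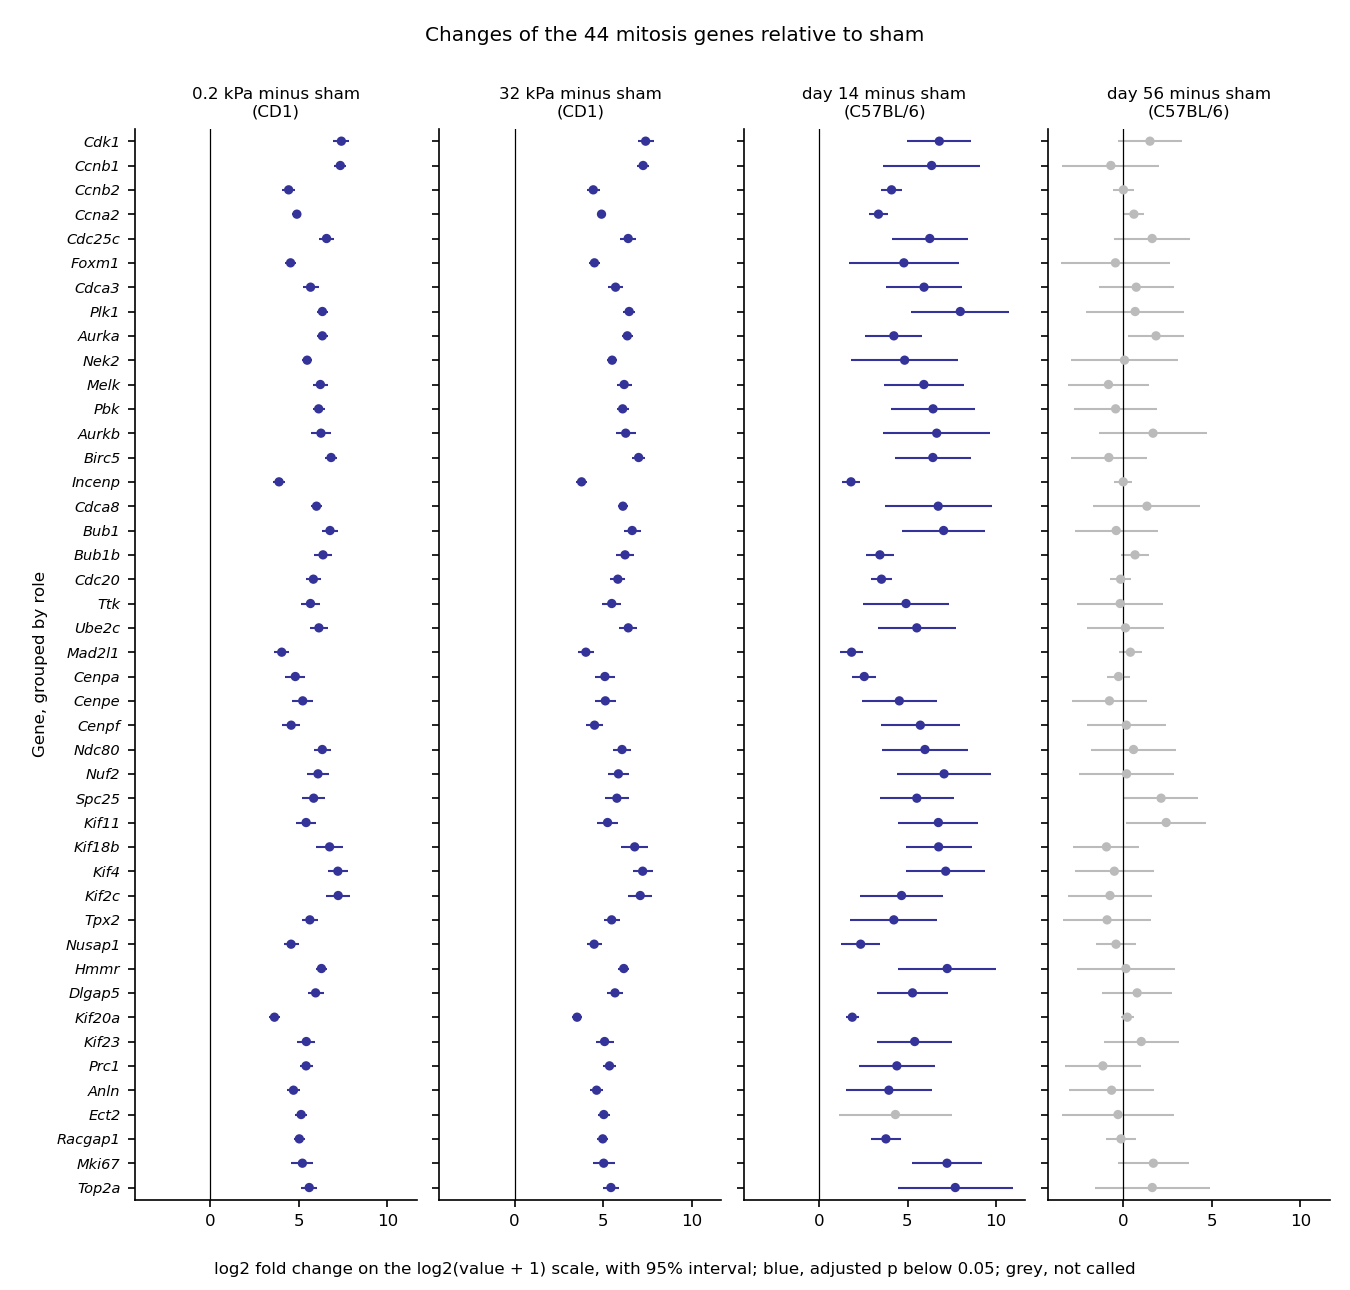
Log2 fold change of each mitosis gene relative to sham, with its 95% interval, on 0.2 kPa, on 32 kPa, at day 14 and at day 56. All 44 intervals lie above 0 on the gels and at day 14, Ect2 is grey at day 14 because its adjusted p of 0.0644 missed the threshold, and all 44 are grey at day 56.

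The genes of mitotic entry followed that course. Cdk1 had 25.7, 28.9, 27.9 and 23.4 CPM at day 14 and 0.367, 0.840, 1.34 and 0.588 CPM at day 56, against 0, 0.590, 0.259 and 0.726 CPM in sham cells. Ccnb1 had 34.0, 48.4, 39.9 and 26.4 CPM at day 14 and 0.183, 1.05, 0 and 1.13 CPM at day 56, against 0, 1.87, 1.30 and 0.605 CPM in sham cells. Both stood above 20 CPM in every day 14 library and below 2 in every other library of the strain. Ccna2 had 36.4, 41.6, 42.0 and 43.6 CPM at day 14 and 5.44, 8.54, 7.94 and 4.92 CPM at day 56, against 4.19, 2.74, 4.56 and 5.25 CPM in sham cells. Its change at day 56 (0.60 ± 0.26, adjusted p = 0.78) did not pass, and was -0.004 ± 0.18 without the 4 libraries with fewer genes detected. Foxm1 had 13.5, 20.9, 26.7 and 18.3 CPM at day 14 and 1.71, 1.96, 0 and 0.930 CPM at day 56, against 0, 2.74, 1.74 and 1.96 CPM in sham cells. At day 14 Cdk1 rose by 6.80 ± 0.84, Ccnb1 by 6.36 ± 1.28, Ccna2 by 3.36 ± 0.26 and Foxm1 by 4.79 ± 1.44. Without the 4 libraries with fewer genes detected, the changes were 5.83 ± 0.37 for Cdk1, 5.31 ± 0.59 for Ccnb1, 3.05 ± 0.16 for Ccna2 and 3.36 ± 0.32 for Foxm1.

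Plk1 had the largest change of the 44 genes at day 14, with 22, 26.2, 25.3 and 19.0 CPM at day 14 and 0.734, 0, 0 and 0.906 CPM at day 56, against 0, 0, 0.778 and 0.0968 CPM in sham cells. Sham replicates 1 and 2 and day 56 replicates 2 and 3 held no Plk1 read. Aurkb had 12.9, 14.8, 14.9 and 11.2 CPM at day 14 and 0.428, 0, 5.11 and 0.637 CPM at day 56, against 0, 0, 0.933 and 0.460 CPM in sham cells. Day 56 replicate 3 was the only day 56 library above 1 CPM for Aurkb. Birc5 had 19.5, 24.4, 24.2 and 16.1 CPM at day 14 and 0.122, 0.210, 0 and 0.441 CPM at day 56, against 0.448, 0, 0.648 and 0.387 CPM in sham cells. Birc5 rose by 6.43 ± 1.01 at day 14 and Aurkb by 6.65 ± 1.42. Without the 4 libraries, Birc5 rose by 5.29 ± 0.46, Aurkb by 4.29 ± 0.36 and Plk1 by 6.18 ± 0.59.

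Bub1b had 22, 20.7, 26.6 and 21.5 CPM at day 14 and 2.26, 4.34, 6.60 and 2.47 CPM at day 56, against 2.26, 1.56, 3.03 and 1.89 CPM in sham cells. Cdc20 had 43.0, 49.6, 41.4 and 32.7 CPM at day 14 and 2.57, 5.04, 3.00 and 3.70 CPM at day 56, against 3.14, 4.63, 4.36 and 2.81 CPM in sham cells. Neither gene was at 0 in any library, and their changes at day 14 were among the smaller and more precise ones (Bub1b 3.44 ± 0.36, Cdc20 3.53 ± 0.27). Cenpa had 22.1, 26.0, 22.9 and 23.4 CPM at day 14 and 3.18, 4.90, 3.30 and 3.23 CPM at day 56, against 7.19, 4.78, 2.39 and 3.46 CPM in sham cells. Ndc80 had 6.83, 8.90, 8.97 and 4.39 CPM at day 14 and 0.183, 0, 0.447 and 0.318 CPM at day 56, against 0, 0, 0.311 and 0.629 CPM in sham cells. The level of both at day 14 exceeded every sham and day 56 library.

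Kif11 had 13.1, 18.3, 19.6 and 11.8 CPM at day 14 and 0.367, 0.980, 1.49 and 0.784 CPM at day 56, against 0, 0, 1.09 and 0.532 CPM in sham cells. Kif18b had 9.44, 8.80, 9.31 and 8.72 CPM at day 14 and 0, 0, 0 and 0.171 CPM at day 56, against 0, 0.0211, 0.130 and 0.242 CPM in sham cells. The 4 day 14 libraries of Kif18b lay within 1 CPM of each other. Kif20a had 64.6, 83.9, 67.9 and 58.5 CPM at day 14 and 22.3, 25.1, 23.7 and 23.4 CPM at day 56, against 21.2, 15.3, 21.5 and 19.0 CPM in sham cells, and rose by 1.88 ± 0.17 at day 14. Its sham level was the highest of the 44 genes. Prc1 had 46.2, 51.9, 54.3 and 38.8 CPM at day 14 and 1.96, 4.20, 0.0248 and 3.23 CPM at day 56, against 2.53, 1.68, 2.75 and 2.35 CPM in sham cells. Anln had 43.2, 65.4, 60.6 and 42.9 CPM at day 14 and 7.52, 5.32, 0.0496 and 9.21 CPM at day 56, against 4.17, 1.52, 4.64 and 4.84 CPM in sham cells. Day 56 replicate 3, a library with fewer genes detected, was far below the other day 56 libraries for Prc1 and Anln. Mki67 had 28, 37.5, 38.1 and 32.3 CPM at day 14 and 0.183, 2.17, 0.621 and 1.27 CPM at day 56, against 0, 0.211, 0.804 and 0.508 CPM in sham cells. Top2a had 36.1, 57.5, 35.6 and 33.3 CPM at day 14 and 1.10, 1.96, 0 and 2.67 CPM at day 56, against 0, 0, 1.58 and 1.19 CPM in sham cells. Mki67 rose by 7.23 ± 0.93 and Top2a by 7.70 ± 1.51 at day 14, and by 5.66 ± 0.58 and 4.82 ± 0.36 without the 4 libraries. At day 56, Mki67 (1.70 ± 0.93, adjusted p = 0.819) and Top2a (1.63 ± 1.51, adjusted p = 0.892) did not pass. Without the 4 libraries their day 56 changes were -0.43 ± 0.67 for Mki67 and 0.24 ± 0.42 for Top2a, also not called.

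Sums of the markers of other cells also differed at day 14. The 12 leukocyte markers summed to 2189, 1257, 606 and 2303 CPM in day 14 replicates 1 to 4 and to 206, 709, 610 and 411 CPM at day 56, against 276, 396, 254 and 304 CPM in sham cells. Of the 12, 9 were called higher at day 14, where 9.57% of all genes were. None of the 12 was at 0 in any C57BL/6 library. Day 14 replicate 4, with the highest leukocyte sum, had the lowest mitosis sum (836 CPM) and was lowest for 31 of the 44 genes. Day 14 replicate 3, with the lowest leukocyte sum, had a mitosis sum of 1055 CPM. Day 56 replicates 2 and 3 had leukocyte sums like that of day 14 replicate 3, with mitosis sums of 128 and 86.8 CPM. Mesenchyme markers summed to 82675 to 103020 CPM at day 14 and 29907 to 44971 CPM at day 56, against 30350 to 42811 CPM in sham cells. Of these 8 markers, 3 were called higher and 3 lower at day 14 (9.57% and 6.36% of all genes), with changes from -1.59 to 2.54. The sum follows the most abundant markers and does not give the direction of each. Epithelial markers summed to 26.5 to 80.1 CPM at day 14 and 43.0 to 189 CPM at day 56, against 129 to 332 CPM in sham cells, endothelial ones to 99.8 to 159 CPM and 155 to 180 CPM, against 217 to 325 CPM, and red cell ones to 40.0 to 86.2 CPM and 3.55 to 21.6 CPM, against 19.6 to 35.1 CPM. At day 14, 2 of 10 epithelial and 2 of 10 endothelial markers were called lower and 0 higher (6.36% of all genes were lower). Of the single changes, 4 epithelial and 6 endothelial ones were positive, and 0 of 5 red cell markers were called. Without the 4 libraries with fewer genes detected, 1 epithelial and 1 endothelial marker were higher, and 3 and 2 lower (13.9% and 12.2% of all genes). The part of any of these cells in the mitosis gene levels was not tested.

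**Figure D4:**
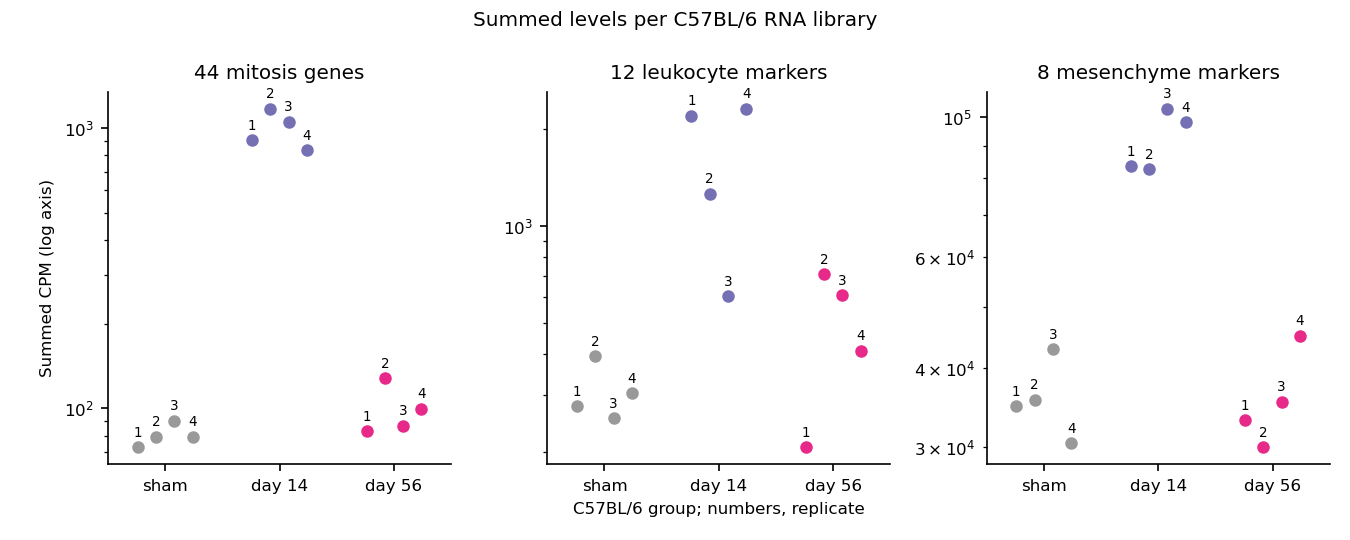
Summed CPM per C57BL/6 RNA library (points, labelled by replicate) of the 44 mitosis genes, 12 leukocyte markers and 8 mesenchyme markers, on log axes. The mitosis sum is lowest of day 14 in replicate 4, where the leukocyte sum is highest.

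The change on the gels and the change at day 14 were compared gene by gene to ask where culture and injury differ. The 0.2 kPa change exceeded the day 14 change for 9 of the 44 genes and was smaller for 0 (17.4% and 23.7% of all 17660 genes tested). The same 9 genes were called on 32 kPa, again with 0 smaller (18.8% and 26% of all genes). They were Bub1b (2.99 ± 0.48 on 0.2 kPa and 2.84 ± 0.48 on 32 kPa), Cdc20 (2.36 ± 0.35 and 2.35 ± 0.35), Cenpa (2.32 ± 0.43 and 2.59 ± 0.43), Nusap1 (2.28 ± 0.65 and 2.19 ± 0.65), Mad2l1 (2.27 ± 0.41 and 2.24 ± 0.41), Incenp (2.15 ± 0.29 and 2.03 ± 0.29), Kif20a (1.82 ± 0.22 and 1.70 ± 0.22), Ccna2 (1.60 ± 0.30 and 1.60 ± 0.30) and Racgap1 (1.32 ± 0.48 and 1.25 ± 0.48). The share of 9 in 44 is near that of all genes tested. The count was larger without the 4 C57BL/6 libraries with fewer genes detected, and what sets those libraries apart was not tested. Without them, in a fit added after the data were seen, 27 of the 44 genes were called larger and 0 smaller on 0.2 kPa (24.5% and 27.2% of all genes), and 27 and 0 on 32 kPa (25.6% and 29.3%). The 9 genes were among the 27 on each gel, and the median difference was 1.5 on 0.2 kPa and 1.44 on 32 kPa, against 0.52 and 0.48 with all libraries. Aurka (2.98 ± 0.24), Ndc80 (2.48 ± 0.48), Ect2 (2.26 ± 0.33) and Cdk1 (1.63 ± 0.42) were among the 18 others on 0.2 kPa, named after their values were seen. With all libraries the standard errors of the 9 were 0.22 to 0.65, whereas the median over the 44 was 1.29, and 0.43 without the 4 libraries. A p that misses the threshold does not show that culture and injury changed a gene alike. Strain, reporter and table differ between the experiments and cannot be told apart from culture and injury where they act on a change.

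Racgap1, the centralspindlin subunit that partners Kif23, lost its call in 9 of the 21 omissions of 1 library on 0.2 kPa (adjusted p of 0.0576 to 0.0811) and in 12 on 32 kPa (0.0523 to 0.0947), the omissions on 32 kPa with each 0.2 kPa, each 32 kPa and CD1 sham replicates 1 and 2 among them. Without C57BL/6 sham replicate 1, Aurka, Cdk1, Spc25 and Ube2c were also called larger on the gels (0.2 kPa differences of 3.20, 1.73, 1.70 and 1.94), and without day 56 replicate 3 so were Kif2c, Prc1 and Tpx2 (2.62, 1.09 and 1.47). Without C57BL/6 sham replicate 3, the 32 kPa change of Mki67 was called smaller than its day 14 change (-2.83, adjusted p = 0.0494). Without the 4 libraries with fewer genes detected, that difference was -0.58 ± 0.69 and was not called (adjusted p = 0.495). The mean level at day 14 was 13.9% of that on 0.2 kPa for Cdk1, the lowest of the 44, and 65.2% for Ccnb2, the highest. Those levels come from tables that were normalized separately.

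**Figure D5:**
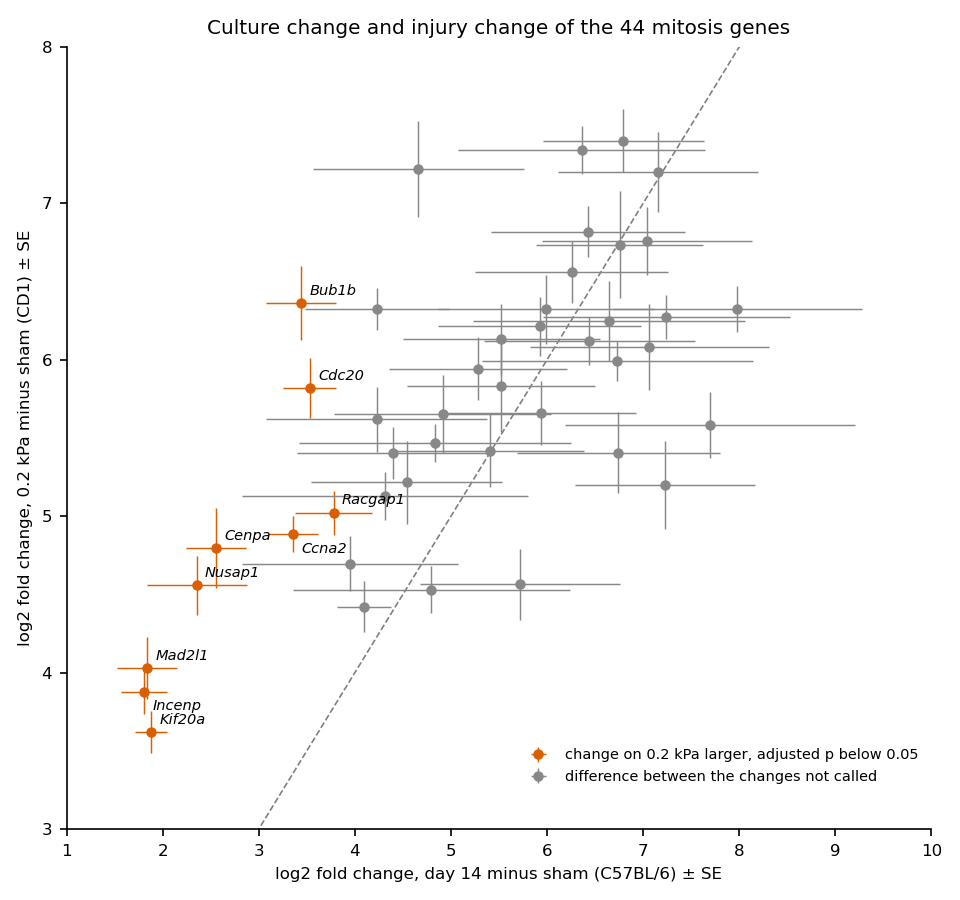
Change of each of the 44 genes on 0.2 kPa (vertical axis, CD1) plotted over its change at day 14 (horizontal axis, C57BL/6), both as log2 fold change ± SE against sham. The 9 orange genes, from Kif20a at the lower left to Bub1b, lie above the dashed line of equal change and were called, and most grey genes have wide horizontal errors.

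Of 60 other mitosis genes, 60 rose on 0.2 kPa, 59 on 32 kPa and 45 at day 14, and 47 fell at day 56 against day 14. Of all genes tested, 31.9%, 32.4% and 9.57% were higher in the comparisons with sham. Against day 14, 8.49% were lower at day 56. They ran from Cdc25b, a phosphatase that activates Cdk1 (0.31 ± 0.12 on 0.2 kPa, and 0.22 ± 0.12, not called, on 32 kPa), to Cenph and Gtse1 (6.61 ± 0.32 and 6.59 ± 0.24 on 0.2 kPa). At day 14, securin (Pttg1) fell by 0.91 ± 0.26, the only decrease called, and the highest were Depdc1a (7.03 ± 0.86) and Shcbp1 (6.78 ± 1.38). The median change was 4.58 on 0.2 kPa, 4.47 on 32 kPa and 4.03 at day 14, with all libraries. Without the 4 libraries with fewer genes detected, 54 rose at day 14 (13.9% of all genes), with a median of 3.07. None of the 60 was called between the gels (0% of all genes) or at day 56 against sham (0% of all genes were higher and 0.00474% lower).

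Mitosis also uses machines that work in resting cells. Of 15 core subunits and activators of the anaphase-promoting complex, 9 rose on 0.2 kPa, 10 on 32 kPa and 3 at day 14, with Anapc15 highest (3.45 ± 0.13, 3.45 ± 0.13 and 1.10 ± 0.25). Of all genes tested, 31.9%, 32.4% and 9.57% were called higher in these comparisons. The list's median was 0.63 on 0.2 kPa and 0.30 at day 14. Of 10 cohesin genes, 1 rose (Wapl, which releases cohesin, 0.48 ± 0.18) and 6 fell on 0.2 kPa, with the loader genes Nipbl (-1.33 ± 0.28) and Mau2 (-1.25 ± 0.12) lowest. On 32 kPa 6 of the cohesin genes fell and 0 rose. Of all genes tested, 39.2% were lower on 0.2 kPa and 41% on 32 kPa. At day 14 none was called, but 4 fell without the 4 libraries with fewer genes detected (12.2% of all genes).

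Regulators of mitotic transcription moved in both directions. Of 12 MuvB and DREAM components, 8 rose and 3 fell on each gel, and 2 rose and 2 fell at day 14. Of all genes tested, 31.9% were higher and 39.2% lower on 0.2 kPa, and 32.4% and 41% on 32 kPa. At day 14, 9.57% were higher and 6.36% lower. Calls in both directions were thus common elsewhere too. Mybl2, the activating partner of MuvB, rose by 5.02 ± 0.16 on 0.2 kPa, 4.90 ± 0.16 on 32 kPa and 5.98 ± 1.27 at day 14, and fell by 5.62 ± 1.27 at day 56 against day 14. Rbl2, which encodes the DREAM repressor p130, fell by 3.17 ± 0.14, 3.54 ± 0.14 and 0.48 ± 0.14 and rose at day 56 against day 14 by 0.45 ± 0.14. Of 14 cell cycle inhibitors, 7 rose and 6 fell on each gel, and 3 rose and 3 fell at day 14, beside the same shares of all genes. Gas1, a growth arrest gene, fell by 5.68 ± 0.27 on 0.2 kPa and 6.03 ± 0.27 on 32 kPa, and Cdkn1c, which encodes p57, by 4.64 ± 0.33, 5.56 ± 0.33 and, at day 14, 2.30 ± 0.49. Cdkn2a, which encodes p16 and p19Arf, rose by 5.28 ± 0.45, 5.63 ± 0.45 and 3.42 ± 0.74. The changes of these single genes at days 14 and 56, that of Mybl2 among them, include the C57BL/6 libraries with fewer genes detected.

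Genes of the G1/S transition and of DNA replication also rose on the gels. Of 30, 29 rose on each gel, where 31.9% of all genes were higher on 0.2 kPa and 32.4% on 32 kPa. On 0.2 kPa the median was 3.31, led by Rrm2, a ribonucleotide reductase subunit (5.66 ± 0.12), and E2f2 was not called (-0.43 ± 0.27). At day 14, 14 of the 30 rose (9.57% of all genes), with a median of 1.17. Without the 4 libraries with fewer genes detected, 21 rose (13.9% of all genes), with a median of 1.06. With all libraries 28 changes were positive, and the highest, of Uhrf1 (3.35 ± 1.20) and Ccne1 (3.01 ± 1.08), were not called. The sum of the 30 genes was 712 to 952 CPM at day 14 and 437 to 528 CPM at day 56, against 426 to 464 CPM in sham cells. The sum over the 44 mitosis genes was lower than this one in sham cells and higher at day 14.

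Open chromatin was read from the authors' deposited lists of regions that differ between groups, in which each log2 fold is the authors' own. Around the start sites of the mitosis genes, accessibility was listed as lower in culture while their RNA was higher. A region within 1000 bases of a start site was lower for 42 of the 44 genes on 0.2 kPa (95.5%) and for 42 on 32 kPa (95.5%), and such a region was lower for 72.3% and 71.9% of 16008 genes in all, so a listed decrease was also the rule elsewhere. Its median log2 fold was -2.85 on 0.2 kPa and -2.23 on 32 kPa for the mitosis genes, against -2.79 and -2.28 for all genes with a region. The lists differ in their cutoff, with a lowest absolute log2 fold of 1 on 0.2 kPa and 0.31 on 32 kPa, so their medians cannot be compared with each other. At Cdk1 the authors' deposited list gave a log2 read concentration of 6.68 on 0.2 kPa and 9.07 in sham cells (log2 fold -2.39). The smallest decrease was at Plk1 (-1.16 on 0.2 kPa and -0.45 on 32 kPa). Cenpe, a kinesin of the kinetochore, had a region 694 bases past its start that was higher on 32 kPa (1.61) beside one at its start that was lower (-2.16). A higher region within 1000 bases was listed on 32 kPa for 1.62% of all genes. In the authors' deposited list of 32 kPa against 0.2 kPa no region lay within 10000 bases of any of the 44 start sites. Such regions were rare elsewhere too, higher for 3.9% and lower for 0.00625% of the 16008 genes. Of the regions in the lists, 41750 of 47475 were lower on 0.2 kPa and 41182 of 58510 on 32 kPa.

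In the authors' deposited lists for injury, regions near the mitosis genes were few. Within 1000 bases of a start site, 0 genes had a higher region at day 14 and 1 a lower one (Dlgap5, log2 fold -1.0), where 2.52% and 0.863% of 15525 genes had one, and the lists with day 56 held none. Of all genes, 0.0902% had a higher and 0.0644% a lower region at day 56 against sham. Against day 14 the shares were 0.606% and 2.72%. Within 10000 bases of a start site, 1 gene had a higher region at day 14 (2.27% of the 44, where 13.6% of all genes had one) and 1 a lower one (5.85% of all genes). The gene with higher regions was Anln, with a region centred 3052 bases past its start, with a log2 read concentration of 6.87 at day 14 and 4.88 in sham cells (log2 fold 1.99). At day 56 that region had a concentration of 5.19 (-1.68 against day 14). A second Anln region had a log2 fold of 1.47 at day 14 and, at day 56 against day 14, -2.0. The other entries in that window were a region near Aurka that was higher at day 56 than in sham cells (1.28), and, at day 56 against day 14, a higher one near Aurkb (1.03) and a lower one near Racgap1 (-1.37). In that window 0.586% of all genes had a higher region at day 56 against sham. Against day 14, 3.8% had a higher and 13.6% a lower one. The lists hold only regions past the authors' threshold, so a gene without an entry may still have an accessible start site.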

How the data were processed

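RNA was analysed in 21 libraries and open chromatin through region lists. Per the submitters' processing notes, HISAT2, featureCounts and DESeq2 served RNA, and Bowtie2, MACS2 and DiffBind are named too, with build mm10 and no versions. The RNA values are a signal that the authors deposited, gene counts divided by size factors. 100% of them were whole reads within 0.05 of a read once multiplied back, and CPM come from those reads. Entries without a symbol (855 in CD1, 2.13 to 4.77% of reads) were left out. The deposited region lists hold the authors' log2 concentrations, log2 folds and p-values with FDR. Values were rescaled by median of ratios per table, kept at a mean of at least 1, and tested as log2(value + 1) with limma 3.58.1 in R 4.3.3, with Benjamini-Hochberg adjustment over all genes and a threshold of 0.05. A fold change on that scale understates the change of genes low in every library, and exceeds the ratio of means where some libraries of the lower group are at 0. Changes on gels and at day 14 were compared in 1 fit of the 24056 symbols shared by both tables. edgeR 4.0.16 and DESeq2 1.42.0 on the recovered reads were alternatives. Motifs were read in RefSeq promoters, and exon lengths in GENCODE M21. CPM errors and floors cover counting error only. The members and lists were chosen with earlier results of these data known. Of the 44 genes, 18 given by role have values in every library, the others a range or an exception, and of each other list the 2 highest and 2 lowest changes could be named. The alternatives tried were pseudocounts, filters, scalings, tools, the replicate block, Xist presence, and the omission of libraries; the comparison of gel and day 14 changes without 4 libraries was added after the data were seen.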

Additional observations from a re-analysis of the deposited data

Results flagged for a closer look

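In C57BL/6, 135 sets of 4 libraries were searched for a library that stands apart, and 9 held one by Dixon's criterion. Chance alone flags about 1 in 20 such groups if the values are normally distributed. Some of these sets hold libraries at 0 reads, and 9 flags were at the high end and 0 at the low end. The share that chance flags here is therefore not known. At day 14, replicate 2 had 57.5 CPM of Top2a (33.3 to 36.1 in the others) and 17.6 CPM of Nek2, a centrosome kinase (12.7 to 13.2). At day 56, replicate 2 was high for 4 genes. It had 2.94 CPM of the microtubule depolymerase Kif2c (0 to 0.428 in the others), 4.90 CPM of Cenpa (3.18 to 3.30), 6.93 CPM of Nusap1 (1.04 to 1.41) and 15.2 CPM of the checkpoint gene Mad2l1 (6.85 to 8.07). Day 56 replicate 3 had 5.11 CPM of Aurkb (0 to 0.637 in the others). Day 56 replicate 4 had 0.171 CPM of Kif18b, which was at 0 in the others. Sham replicate 3 had 0.778 CPM of Plk1 (0 to 0.0968 in the others).

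Changes that differed between conditions by a test of the difference were also collected. The change from sham was lower at day 56 than at day 14 for 43 of the 44 genes. It was higher on 0.2 kPa than at day 14 for 9 genes and higher on 32 kPa than at day 14 for 9 genes. Of all genes tested, 17.4% and 18.8% were called higher in these comparisons, so 9 of 44 is near the background. Without the 4 libraries with fewer genes detected the count was 27 on each gel, where 24.5% and 25.6% of all genes were called.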

How the results depend on the processing

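All 44 genes were called higher on both gels under each alternative run, and 0 between the gels and 0 at day 56 against sham. Counts at day 14 against sham were 39 to 44 without 1 library and 41 to 44 otherwise, and at day 56 against day 14 they were 36 to 44 and 35 to 44. The gel changes exceeded the day 14 change for 8 to 13 genes without 1 library, and for 27 on each gel without the 4 libraries with fewer genes detected. There Bub1 (1.70 on 0.2 kPa and 1.56 on 32 kPa), Aurkb (2.02 and 2.02), Foxm1 (1.24 and 1.20) and Cdca8 (2.02 and 2.13) were called with a sign opposite to that with all libraries, where they were not called. Genes whose 32 kPa change was smaller than that at day 14 numbered 0 to 1 without 1 library. Of 8313 values of single genes under an alternative, these 8 changed sign with a call, 96 no longer passed the threshold and 71 newly passed it. Scaling moved the median of all genes at day 56 against day 14, from -0.27 with values as deposited to 0.12 with total reads, with -0.08 as reported. All genes called there were 1205 higher and 1792 lower, 777 and 3035 with values as deposited, and 1561 and 1026 with total reads, and the cause was not tested. Foxm1 (adjusted p = 0.0571) and Nek2 (0.051) lost their day 14 call with a pseudocount of 0.5. Sham replicate 1, with 51288435 reads, had 24 members at 0 reads, and day 14 replicate 4, with 17999215 reads, had 0. The mean sum of the 44 genes was 993 CPM at day 14 and 80.4 CPM in sham cells, so these 2 libraries cannot show the part of depth. That part was not tested.

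Deviations of samples with the same replicate number had correlations of -0.246 to 0.123 in CD1 and -0.194 to 0.141 in C57BL/6. For samples with different numbers they were -0.264 to 0.263 in CD1 and -0.132 to 0.223 in C57BL/6. These ranges overlap, and libraries of a group also differed in genes detected. The correlations therefore cannot decide whether the numbers pair samples, which the labels do not state. With the replicate number as a block, 44 genes were called on each gel, 0 between the gels, 43 at day 14, 0 at day 56 against sham, 43 at day 56 against day 14, and 8 for each gel change minus the day 14 change, where Racgap1 was lost (adjusted p of 0.057 and 0.0655). The shares of all genes called with the block are not given here.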
